A study of Mus musculus with 6 samples.

Results

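Granulocyte/macrophage progenitors (GMPs) lacking the transcription factor IRF8 were compared with wild-type (WT) GMPs by joining 2 knockout genotypes into 1 group. The group held the 2 arrays of IRF8 KO mice and the 2 arrays of IRF4/8 DKO mice, which lack the related factor IRF4 as well, so 4 IRF8-deficient arrays stood against 2 WT arrays and all 6 arrays of the series were used. The samples were chosen by the genotype in their titles, with no measured value. What the 4 arrays share by label is the loss of IRF8, and the loss of IRF4 is carried by 2 of them only, so values below are also given for each genotype.

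All mice were of strain BL6 and all cells came from bone marrow. WT replicate 1 was a male of 12 weeks and WT replicate 2 a female of 19 weeks. IRF8 KO replicate 1 was a female of 12 weeks and IRF8 KO replicate 2 a male of 22 weeks. IRF4/8 DKO replicates 1 and 2 were a male and a female, both of 16 weeks. Per the design text, sorting kept Kit-positive cells without lineage markers, IL-7R or Sca1 that carried CD34 and a high level of Fc gamma receptors II and III. Their RNA was hybridised to Affymetrix Mouse Genome 430 2.0 arrays. The labels describe the knockouts as whole mice and give neither the allele nor the part of the gene removed.

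GMPs are bone marrow progenitors that give rise to neutrophils, monocytes and their relatives. IRF8 binds DNA largely together with partners such as PU.1 and other IRF proteins, and is known in this lineage for favouring monocyte and dendritic cell fates over the neutrophil fate. Mice without IRF8 are known to accumulate granulocytes and to develop a disease like chronic myeloid leukaemia. The series title names the cooperation of both losses in blood malignancies as its subject.

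Values were intensity on a linear scale, and differences are given on the scale log2(intensity + 10.5), where 10.5 equals the 25th percentile over all arrays. A fold on that scale understates the change of dim genes. A probe set is said to have risen, fallen or passed where limma's Benjamini-Hochberg adjusted p over 29783 probe sets was under 0.05, and errors are limma standard errors (SE). A gene is represented by its brightest kept probe set, and per-array values are listed as WT, then IRF8 KO, then IRF4/8 DKO, replicate 1 before replicate 2. Arrays carry no read depth, so their number limits the precision, and the p-values measure the spread between these samples only. In bulk RNA, fewer cells of a type and less RNA per cell cannot be told apart.

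The arrays' median intensity lay between 41.65 and 45.27 in WT and between 34.1 and 38.59 in the IRF8-deficient group. Across probe sets, which are not independent, arrays of a genotype correlated at 0.9683 for WT, 0.9122 for IRF8 KO and 0.9519 for IRF4/8 DKO, and WT replicate 2 correlated with IRF4/8 DKO replicate 1 at 0.9604. Xist, Eif2s3y, Kdm5d and Uty matched the labelled sex on all 6 arrays. Of the genes the sort selects on, Kit read 2170 and 1680 in WT and between 1824 and 2426 in the deficient arrays, while Cd34 lay 2.83-fold lower and Fcgr3 3.35-fold higher in the deficient group without passing. Mpo, the myeloperoxidase that GMPs express, read between 12946 and 15417 on all 6 arrays.

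The targeted genes gave no clear loss of signal. The brighter probe set for Irf8 gave 2588 and 3052 in WT, 3811 and 2602 in the IRF8 KO arrays, and 2611 and 4778 in the IRF4/8 DKO arrays, so the groups overlapped, with a difference of 0.25 ± 0.28 (SE) and a limma adjusted p of 0.828. The dimmer one gave 507 and 704 in WT and between 934 and 1900 in the deficient arrays, with a limma adjusted p of 0.279. Irf4 was dim, at 32.1 and 23.5 in WT, 13.8 and 7.66 in the IRF8 KO arrays, and 66.0 and 54.6 in the IRF4/8 DKO arrays. Its other probe set gave 33.1 and 16.8 in WT, 29.7 and 14.1 in the IRF8 KO arrays, and 11.8 and 20.2 in the IRF4/8 DKO arrays, so the groups overlapped (-0.27 ± 0.38 SE, limma adjusted p = 0.868). No source used here says whether these probes fall inside the deleted parts, so they check no label.

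Of the 29783 probe sets, 175 passed between IRF8-deficient and WT GMPs, which is 0.588% of those tested. Of them, 58 rose in the deficient group (0.195%) and 117 fell (0.393%), while 1175 and 1951 were higher and lower at an unadjusted p under 0.05. With each array centred on its median the split was 65 higher and 79 lower, and the median difference of all probe sets moved from -0.0482 to 0.132. With no filter on dim probe sets 113 passed. Rises ranged from 2.3-fold to 51.9-fold, with a median log2 difference of 2.53, and falls from 3.39-fold to 38.5-fold, with a median of -2.75. Non-overlapping arrays were far more frequent than calls: in 6262 probe sets (21.0%) all 4 deficient arrays lay on one side of both WT arrays, above in 2535 (8.51%) and below in 3727 (12.5%). All 175 probe sets that passed were among these.

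Counted by gene, 100 of 13267 representative probe sets passed (0.754%), 42 higher (0.317%) and 58 lower (0.437%). Whether or not they passed, 7072 were above and 6195 below WT, which is the background for the gene lists below. Through any of their probe sets, 46 named genes rose and 78 fell. Of the 117 probe sets that fell, 50 had been kept by the filter through the WT arrays alone, and 38 had a deficient mean under 10.5, so many falls end near the floor of the measurement. The counts rested on single arrays: 2 probe sets passed without WT replicate 1, 35 without WT replicate 2, 14 without IRF4/8 DKO replicate 1 and 49 without IRF4/8 DKO replicate 2. Without an IRF8 KO array the numbers were 229 and 181. Leaving out a WT array leaves a lone WT array, which limma assumes to vary like the other group. Of the 41 genes that passed and are named by rule below, only Tmem178 and Ly86 passed without WT replicate 1. Of the 41, 8 were kept by the filter through the WT arrays alone: Ly86, Csrp3, Tek, Slc7a8, Rnase6, Mecom, Ikzf3 and Gata1. The filter can likewise keep a rise through the deficient arrays alone, which was not counted. Of the 58 probe sets that rose, 2 had a WT mean under 10.5. This does not bound the number of such rises, because the filter's cut lies above 10.5 on every array. Among the named rises, Mmp8 and Ptgfrn had WT means of 10.92 and 10.66, so their rises also start near the floor of the measurement.

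**Figure D1:**
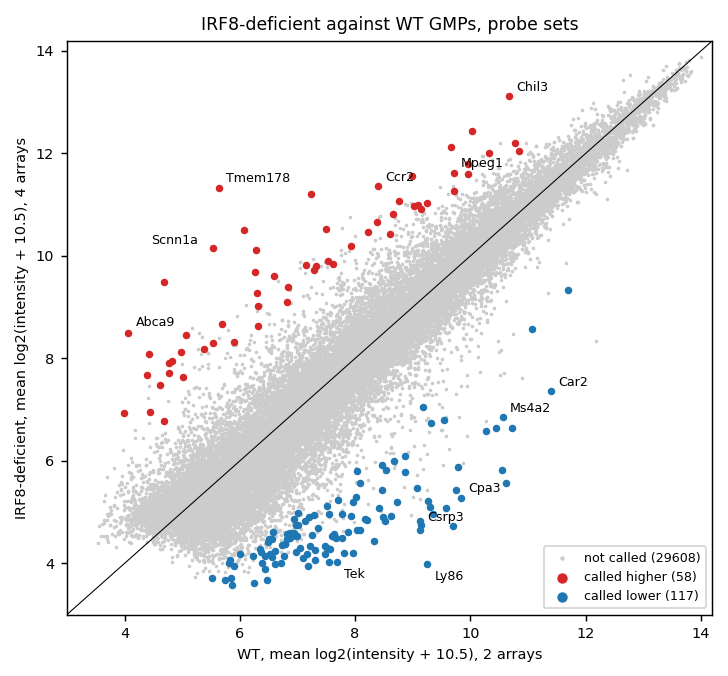
Mean log2(intensity + 10.5) of each kept probe set in the 2 WT arrays (horizontal) and the 4 IRF8-deficient arrays (vertical), with the line of equal values. The 58 probe sets that rose lie above the line and the 117 that fell lie below it, many of the latter at the low end of the vertical axis.

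Tmem178, which encodes a membrane protein, showed the largest rise. Its intensity was 30.8 and 49.5 in WT, 2562 and 2439 in the IRF8 KO arrays, and 1864 and 3758 in the IRF4/8 DKO arrays, so every deficient array read far above both WT arrays. The log2 difference was 5.70 ± 0.38 (SE), or 51.9-fold, with a limma adjusted p of 0.00055. Ly86 mirrored it among the falls. Ly86 encodes MD-1, the secreted partner of the Toll-like receptor relative CD180, and read 625 and 575 in WT, 4.70 and 3.22 in the IRF8 KO arrays, and 11.0 and 3.52 in the IRF4/8 DKO arrays. Its difference was -5.27 ± 0.36 (SE), a 38.5-fold fall, with a limma adjusted p of 0.00055. Cd180 itself differed by 0.20 (limma adjusted p = 0.93).

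Ccr1 and Ccr2, chemokine receptors of monocytes, rose, and Ccr1 was among the 12 largest rises. Ccr1 read 4.47 and 33.3 in WT, 533 and 388 in the IRF8 KO arrays, and 1019 and 1172 in the IRF4/8 DKO arrays, a rise of 4.81 ± 0.58 (SE) with a limma adjusted p of 0.0117. Its WT arrays differed from each other but neither came near the deficient arrays. Ccr2, the receptor that takes monocytes out of the marrow, read 234 and 457 in WT, 2158 and 2494 in the IRF8 KO arrays, and 2856 and 3024 in the IRF4/8 DKO arrays. It rose 7.76-fold (2.96 ± 0.33 SE, limma adjusted p = 0.00891), and 3 further Ccr2 probe sets shared the direction, 1 of which passed. Of 13 genes of the list of chemokine receptors and chemokines, these 2 passed, and 7 were above and 6 below WT, with a median of 0.285 beside 0.0347 over all genes, which turned to -0.128 without IRF8 KO replicate 1. Neither passed without WT replicate 1 or without IRF4/8 DKO replicate 1.

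Abca9, an ABCA-family transporter, went from the floor to a clear signal. It read 5.08 and 7.48 in WT and 407, 225, 384 and 433 in the 4 deficient arrays, a difference of 4.43 ± 0.40 (SE) with a limma adjusted p of 0.00342. Both WT values lay under 10.5, so the filter kept this probe set through the deficient arrays alone. Another Abca9 probe set read 17.26 and 27.2 in WT and between 61.75 and 99.85 in the deficient arrays, and did not pass (limma adjusted p = 0.134). Scnn1a, a subunit of the epithelial sodium channel, read 22.3 and 54.2 in WT, 908 and 914 in the IRF8 KO arrays, and 911 and 2146 in the IRF4/8 DKO arrays (4.63 ± 0.48 SE, limma adjusted p = 0.00685). Tctex1d1, of the dynein light chain family, read 111 and 175 in WT and between 1495 and 3374 in the deficient arrays, a 15.8-fold rise (limma adjusted p = 0.00426). These genes are known mainly from other tissues. All their deficient arrays lay above both WT arrays, as the choice of the genes required.

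Further large rises were those of Slc36a2 (10.7-fold), an amino acid transporter, Shisa2 (10.6-fold), Ptgfrn (9.77-fold), a tetraspanin partner, Cacna1b (8.86-fold), a calcium channel subunit, and AB124611 (8.18-fold). Their limma adjusted p ranged from 0.0101 for Ptgfrn to 0.0299 for Cacna1b. A second Shisa2 probe set also rose, from 17.9 and 15.9 in WT to between 180 and 294. Probe sets of 2 of these genes disagreed: the other Ptgfrn probe set differed by -0.13 (limma adjusted p = 0.969), and of 3 further Cacna1b probe sets 1 rose and the others differed by -0.64 and -0.87 without passing. None of the 8 genes of this and the preceding paragraph passed without WT replicate 1.

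**Figure D2:**
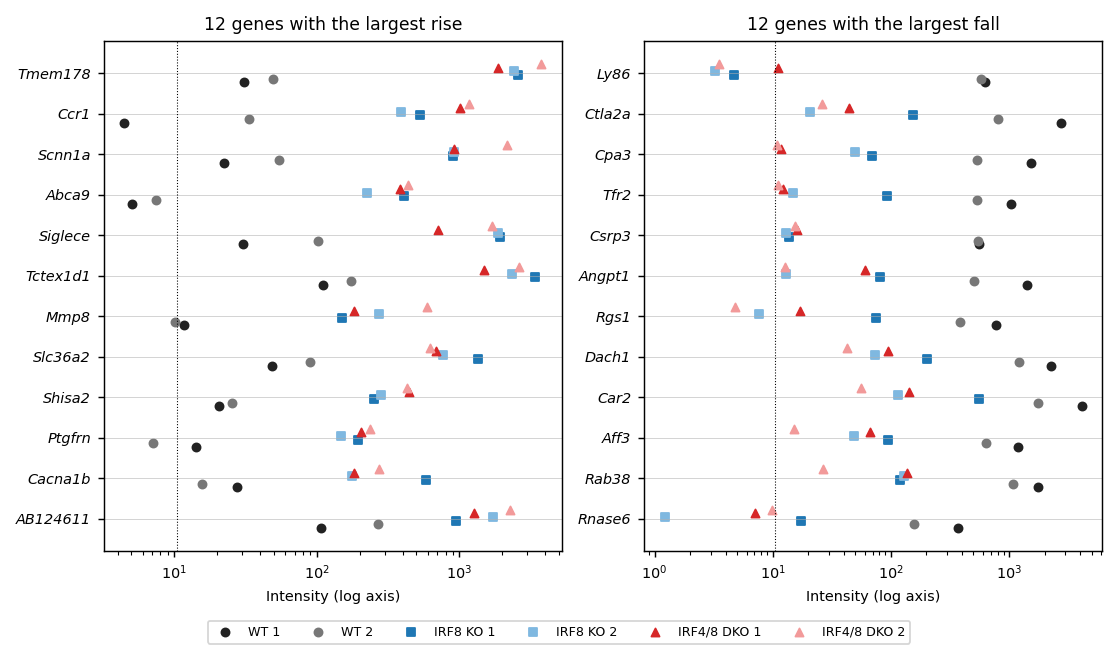
Intensity (log axis) on each of the 6 arrays for the 12 genes with the largest rise (left) and the 12 with the largest fall (right) among genes that passed, with a dotted line at 10.5. In every gene the 4 deficient arrays lie on one side of both WT arrays because the genes were chosen for arrays that do not overlap. In all 12 falling genes WT replicate 1 reads above WT replicate 2.

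Genes of monocytes and macrophages moved in both directions. Of 26 measured, 3 rose and 1, Ly86, fell (15.4% together, beside 0.754% of all genes). Of the 26, 20 were above and 6 below WT, with a median difference of 0.762. Besides Ccr2, Mpeg1, the pore-forming perforin-2, read 844 and 809 in WT, 2704 and 2951 in the IRF8 KO arrays, and 2942 and 4156 in the IRF4/8 DKO arrays (1.91 ± 0.26 SE, limma adjusted p = 0.0187). Adgre1, which encodes F4/80, read 132 and 132 in WT, 516 and 840 in the IRF8 KO arrays, and 1058 and 1406 in the IRF4/8 DKO arrays, a 6.36-fold rise with a limma adjusted p of 0.0296. Both genes had closely matched WT arrays that lay below every deficient array. Klf4, a transcription factor of monocytes, read 280 and 460 in WT and between 17.8 and 118 in the deficient arrays, and did not pass (-2.36 ± 0.59 SE, limma adjusted p = 0.134). Summed over 7 monocyte and macrophage markers, intensity was 3480 and 3014 in WT and between 7562 and 16100 in the deficient arrays. Ccr2, Mpeg1, Adgre1 and Ly86 are among these markers, so the sum is not separate from them, and how far such cells contribute was not tested. Without WT replicate 1, Ly86 alone of this list passed, and the same held without IRF4/8 DKO replicate 1. Without WT replicate 2, 1 gene rose, and without IRF4/8 DKO replicate 2, 2 did.

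Among Siglecs, C-type lectins and other inhibitory receptors, 3 of 21 measured rose and 0 fell (14.3%, beside 0.754% of all genes). Siglece, a sialic acid receptor of myeloid cells, read 30.2 and 101 in WT, 1916 and 1879 in the IRF8 KO arrays, and 708 and 1700 in the IRF4/8 DKO arrays, a 21.6-fold rise (4.43 ± 0.53 SE, limma adjusted p = 0.0117). Cd33, also a Siglec, read 37.9 and 45.1 in WT, 541 and 628 in the IRF8 KO arrays, and 200 and 354 in the IRF4/8 DKO arrays, with a limma adjusted p of 0.0303. Both read higher in IRF8 KO than in IRF4/8 DKO on average, by 0.78 ± 0.59 (SE) and 1.10 ± 0.45 (SE), and neither difference passed. Clec4a2, an inhibitory lectin receptor, read 130 and 235 in WT and between 829 and 1040 in the deficient arrays (2.37 ± 0.36 SE, limma adjusted p = 0.0239). A second Clec4a2 probe set gave 14.22 and 37.9 in WT, 32.1 and 32.4 in the IRF8 KO arrays, and 168 and 313 in the IRF4/8 DKO arrays, and did not pass (limma adjusted p = 0.555). Over the list 12 were above and 9 below WT, with a median of 0.276, which turned to -0.0563 without WT replicate 2. None of the list passed without WT replicate 1. Siglece was the 1 that passed without WT replicate 2 and without either IRF4/8 DKO array in turn.

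Granule and matrix proteins of maturing neutrophils were mostly above WT but seldom passed. Of 21 measured, 20 were above and 1 below WT, beside 7072 and 6195 of all 13267 genes, with a median of 0.814. Of the 21, 2 rose (9.52%, beside 0.754% of all genes that passed). Mmp8, neutrophil collagenase, read 11.7 and 10.2 in WT, 150 and 273 in the IRF8 KO arrays, and 182 and 595 in the IRF4/8 DKO arrays (3.66 ± 0.53 SE, limma adjusted p = 0.0223). Chil3, the chitinase-like protein Ym1, read 855 and 3091 in WT and between 7734 and 10371 in the deficient arrays (2.44 ± 0.40 SE, limma adjusted p = 0.0298). Cybb, the catalytic subunit of the NADPH oxidase, read 631 and 1559 in WT and between 2851 and 5312 in the deficient arrays without passing (limma adjusted p = 0.0711). The replicates set the spread here. The median deviation of the list from the WT mean was -0.645 and 0.645 in the 2 WT arrays, 0.524 and 1.71 in the IRF8 KO arrays, and 0.118 and 1.58 in the IRF4/8 DKO arrays, so replicate 2 was the higher array in every genotype, and WT replicate 2 lay above the lower array of both knockouts. The list's median was 0.457 without WT replicate 1, when none of its genes passed, and 1.45 without WT replicate 2, when 1 passed. It was 1.18 without IRF4/8 DKO replicate 1, when 0 passed, and 1 passed without IRF8 KO replicate 2 or IRF4/8 DKO replicate 2. Lcn2, a secondary granule protein, showed the same split: 41.6 and 320 in WT, 213 and 3500 in the IRF8 KO arrays, and 221 and 3212 in the IRF4/8 DKO arrays (limma adjusted p = 0.471). The 9 mature neutrophil markers, Mmp8 and Lcn2 among them, summed to 12470 and 30220 in WT and to between 20970 and 47230 in the deficient arrays. The part of such cells in these rises was not tested.

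Earlier neutrophil genes held no call. Of 13 azurophil granule genes, which GMPs already express, 0 passed, and 11 were above and 2 below WT. All deficient arrays lay above both WT arrays in 4 of them, beside 1420 of all 13267 genes. The median of the list was 0.308, and 0.122 without WT replicate 1. Mpo differed by 0.03 ± 0.11 (SE), and Elane, neutrophil elastase, by 0.28 ± 0.13 (SE), with limma adjusted p of 0.96 and 0.48. Lyz1, a lysozyme, read 3517 and 4315 in WT and between 5328 and 8494 in the deficient arrays, and Gstm1 read 4876 and 4251 in WT and between 6231 and 8490, both without overlap and both without passing (limma adjusted p = 0.113 and 0.126). All 5 measured NADPH oxidase subunits were above WT, with a median of 0.697, and 0 passed.

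Receptors for cytokines were above WT in 22 of 27 measured genes, beside 7072 of all 13267, with a median of 0.675, and 0 passed. That median stayed between 0.485 and 0.764 when each array was left out in turn. Ifngr1, a chain of the interferon gamma receptor, read 2773 and 2815 in WT and between 4226 and 5175 in the deficient arrays, without overlap (0.78 ± 0.18 SE, limma adjusted p = 0.107). Epor, the erythropoietin receptor, went the other way, from 128 and 57.2 in WT to between 11.9 and 25.1 (-1.75 ± 0.41 SE, limma adjusted p = 0.11). Csf1r, the receptor of the macrophage growth factor, read 1490 and 915 in WT and between 2008 and 6625 in the deficient arrays (limma adjusted p = 0.253).

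Several genes of stem and multipotent progenitors fell and none rose. Of 28 measured, 5 passed (17.9%, beside 0.754% of all genes) and all 5 were lower. Of the 28, 25 were below and 3 above WT, beside 6195 and 7072 of all 13267 genes, with a median of -1.06. Angpt1, the ligand of the TIE2 receptor, read 1428 and 505 in WT and between 12.8 and 80.8 in the deficient arrays, the higher value of each genotype in its replicate 1 (-4.31 ± 0.66 SE, limma adjusted p = 0.0243). Tek, which encodes TIE2 itself, read 250 and 152 in WT and 8.10, 5.75, 5.77 and 4.12 in the deficient arrays, a 12.6-fold fall to below 10.5 on all 4 (-3.65 ± 0.35 SE, limma adjusted p = 0.00426). Ligand and receptor thus both fell, although WT replicate 1 read higher than WT replicate 2 for each. Mecom, a transcription factor of stem cells, fell from 129 and 77.4 to between 8.34 and 11.5 (limma adjusted p = 0.0213).

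Ikzf2, the Ikaros-family factor Helios, fell from 404 and 291 in WT to between 16.7 and 66.2 (limma adjusted p = 0.0239), and 2 further Ikzf2 probe sets passed. Meis1, a homeobox factor chosen after its values were seen, fell from 796 and 347 to between 11.4 and 120 (limma adjusted p = 0.0487). The 7 stem and progenitor markers summed to 4242 and 2039 in WT and to between 198.7 and 449.9 in the deficient arrays. Angpt1, Tek, Mecom and Meis1 are among these markers, so the sum is not separate from the falls just given. The part of such cells in the falls was not tested. Cd34, a gene of the sort gate, read 1747 and 1401 in WT, 440 and 669 in the IRF8 KO arrays, and 590 and 509 in the IRF4/8 DKO arrays, without overlap and without passing (-1.50 ± 0.32 SE, limma adjusted p = 0.0841). Fcgr3, also of the gate, read 1090 and 1259 in WT and 2618, 6315, 2516 and 5863 in the deficient arrays (1.75 ± 0.40 SE, limma adjusted p = 0.0978). The sort selects on the proteins of both genes. Without WT replicate 1 the median of the stem list was -0.669 and 0 of its genes passed. Without WT replicate 2 or either IRF4/8 DKO array 1 passed, and without IRF8 KO replicate 2, 7 did.

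Erythroid and megakaryocyte genes were largely below WT. Of 18 erythroid genes, 3 fell and 0 rose (16.7%, beside 0.754% of all genes), with 14 below, 4 above and a median of -1.05. Tfr2, transferrin receptor 2, read 1047 and 536 in WT, 93.1 and 14.9 in the IRF8 KO arrays, and 12.3 and 11.1 in the IRF4/8 DKO arrays, a 22.5-fold fall (-4.49 ± 0.64 SE, limma adjusted p = 0.0213). Gata1, the master factor of red cells and platelets, fell from 282 and 61.1 to between 1.62 and 13.1 (-3.22 ± 0.54 SE, limma adjusted p = 0.0322), and its probe set was kept through the WT arrays alone. Gata1 did not pass with no filter, no variance trend or sex as a block, or without IRF8 KO replicate 2 or either IRF4/8 DKO array. It is not among the calls with the stricter filter either, which took some named genes out before testing. Car2, carbonic anhydrase 2, fell from 4116 and 1773 to between 56.1 and 553 (-4.05 ± 0.73 SE, limma adjusted p = 0.0461), and passed under 10 of 21 alternatives. Not every erythroid gene shared this: Klf1, an erythroid factor, differed by -0.46 and Tfrc, the main transferrin receptor, by 0.14, neither passing. Of 20 megakaryocyte and platelet genes, 18 were below and 2 above WT, with a median of -0.851. Among them Rab27b, a GTPase of granule release, fell (293 and 105 to between 12.5 and 33.9, limma adjusted p = 0.048), close to the threshold and past it under 8 of 21 alternatives. Itga2b, the platelet integrin chain, read 456 and 93.6 in WT and between 8.56 and 55.8 (limma adjusted p = 0.103).

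Summed markers differed more between the WT arrays for megakaryocyte than for erythroid cells, but bright genes weigh most in a sum. Pf4 read 2516 and 590 in WT, while Tfrc, at 3158 and 4677, ran against Car2, at 4116 and 1773. The median deviations of the full lists from the WT mean were 0.433 and -0.433 for erythroid genes in the 2 WT arrays. For megakaryocyte genes they were 0.516 and -0.516. The 6 megakaryocyte markers summed to 3311 in WT replicate 1 and 841.4 in WT replicate 2, against 998.8 and 481.7 for IRF8 KO and 93.02 and 126.4 for IRF4/8 DKO, so the groups overlapped. The 8 erythroid markers, Gata1 and Car2 among them, summed to 8400 and 6823 in WT and to between 4068 and 6196 in the deficient arrays. The part of such cells in the falls was not tested. Without WT replicate 1 the medians were -0.876 for erythroid and -0.508 for megakaryocyte genes and 0 genes of either list passed. Without IRF4/8 DKO replicate 1 or 2 none passed either, without IRF8 KO replicate 2 1 gene of each list fell, and without IRF8 KO replicate 1, 6 erythroid and 2 megakaryocyte genes fell. Without WT replicate 2, 1 erythroid and 0 megakaryocyte genes fell, and the medians were -1.34 and -1.28.

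Genes of eosinophils, basophils and mast cells split. Of 17 measured, 2 fell and 0 rose (11.8%, beside 0.754% of all genes), 11 were below and 6 above WT, and the median was -0.643. All deficient arrays lay below both WT arrays in 10 of the 17 and above in 5, beside 1153 and 1420 of all 13267 genes. Cpa3, mast cell carboxypeptidase, read 1526 and 537 in WT, 68.9 and 49.5 in the IRF8 KO arrays, and 11.9 and 10.9 in the IRF4/8 DKO arrays (-4.56 ± 0.64 SE, limma adjusted p = 0.0213). Ms4a2, the beta chain of the high-affinity IgE receptor, read 1584 and 1415 in WT, 319 and 66.7 in the IRF8 KO arrays, and 78.3 and 69.3 in the IRF4/8 DKO arrays (-3.70 ± 0.59 SE, limma adjusted p = 0.0274). In both genes all deficient arrays lay below WT, as in every probe set that passed as a fall. The 7 markers of these cells, Cpa3 and Ms4a2 among them, summed to 11260 and 7217 in WT, 3963 and 1469 in the IRF8 KO arrays, and 473.9 and 570.2 in the IRF4/8 DKO arrays. Prg2, at 5863 and 3689, weighed most in the WT sums. The markers do not stand for the whole list, and the part of these cells was not tested. None of the list passed without WT replicate 1, WT replicate 2 or IRF4/8 DKO replicate 1, 1 passed without IRF4/8 DKO replicate 2, and 5 fell without IRF8 KO replicate 1. The median was -0.358 if WT replicate 1 was left out and -1.13 if WT replicate 2 was.

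Several large falls lay outside these lineages. Csrp3, a muscle LIM protein, read 553 and 544 in WT, 13.7 and 13.04 in the IRF8 KO arrays, and 15.9 and 15.5 in the IRF4/8 DKO arrays, with little spread within either group (-4.48 ± 0.34 SE, limma adjusted p = 0.000986). Ctla2a, a cysteine protease inhibitor, fell from 2730 and 814 to between 20.9 and 153, or 26.5-fold (limma adjusted p = 0.0226). Rgs1, which limits signalling of chemokine receptors, fell from 777 and 386 in WT to between 4.76 and 75.2 (-4.30 ± 0.66 SE, limma adjusted p = 0.0239). Dach1, a nuclear cofactor, fell from 2272 and 1225 to between 42.7 and 203, Aff3, a nuclear protein, from 1186 and 642 to between 15.0 and 94.6, and Rab38, a GTPase of lysosome-related organelles, from 1760 and 1080 to between 26.6 and 136. Rnase6, an antimicrobial ribonuclease, fell from 368 and 156 to between 1.22 and 17.5 (limma adjusted p = 0.0129). Slc7a8, an amino acid transporter, and Ell2, a transcription elongation factor, fell 9.84-fold and 10.2-fold, with limma adjusted p of 0.00781 and 0.0117. Of these 9 genes, Csrp3 passed in all but 1 of the leave-one-out fits, and none passed without WT replicate 1.

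Transcription factors of granulocytes and monocytes had a median near WT, while single genes lay on both sides. All deficient arrays lay above both WT arrays in 8 of 41 and below in 7, beside 1420 and 1153 of all 13267 genes. Of 41 measured, 2 fell and 0 rose, with 24 above, 17 below and a median of 0.078, which turned to -0.115 without WT replicate 2. The falls were those of Ikzf2 and Ikzf3, the latter the Ikaros-family factor Aiolos, from 87.1 and 120 in WT to between 5.87 and 19.1 (-2.25 ± 0.37 SE, limma adjusted p = 0.0313), and neither passed without WT replicate 1, WT replicate 2 or either IRF4/8 DKO array. Cebpa and Gfi1, which set the neutrophil fate, differed by 0.12 ± 0.30 (SE) and 0.33 ± 0.19 (SE), and Spi1, which encodes PU.1, by 1.18 ± 0.46 (SE), none passing. Among 8 interferon regulatory factors 0 passed. Irf1 read 1137 and 948 in WT and between 1465 and 2540 in the deficient arrays, without overlap (limma adjusted p = 0.257). Of 23 interferon-stimulated genes 0 passed, with a median of 0.216 that was 0.0363 without IRF4/8 DKO replicate 2, and Psmb8, an immunoproteasome subunit, read 3046 and 4593 in WT, 1120 and 1739 in the IRF8 KO arrays, and 2805 and 3592 in the IRF4/8 DKO arrays.

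Antigen presentation and dendritic cell genes had 0 of 17 passing and a median of 0.233, which turned to -0.0791 without WT replicate 2. All deficient arrays lay below both WT arrays in 5 of the 17 and above in 3, beside 1153 and 1420 of all 13267 genes. Cd74, the invariant chain of MHC class II, read 754 and 365 in WT, 62.0 and 207 in the IRF8 KO arrays, and 13.6 and 10.4 in the IRF4/8 DKO arrays, without overlap (-3.34 ± 0.84 SE, limma adjusted p = 0.14). Of 7 dendritic cell markers, Siglech and Batf3 were under 10.5 on every array. The 7 summed to 1196 and 682 in WT, 379.7 and 470.4 in the IRF8 KO arrays, and 227.6 and 188 in the IRF4/8 DKO arrays. Cd74 was the brightest of them in WT, and the part of such cells was not tested. Among 14 B-lineage genes 1 rose: Vpreb1, a surrogate light chain, read 187 and 185 in WT, 771 and 1275 in the IRF8 KO arrays, and 668 and 1006 in the IRF4/8 DKO arrays (2.22 ± 0.37 SE, limma adjusted p = 0.0322). It did not pass with sex as a block, or when either WT array or either IRF4/8 DKO array was left out. Igll1, its partner, read 119 and 76.6 in WT and between 136 and 254, not passing, and Pax5, the B-cell master factor, was under 10.5 on every array. Of 10 T and NK cell genes 0 passed, and Thy1 read 202 and 59.5 in WT and between 12.9 and 26.6 in the deficient arrays (limma adjusted p = 0.0841).

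Genes that IRF8 is reported to act through in tumour suppression were not shifted together. Of 18 such genes 0 passed, 8 were above and 10 below WT, and the median was -0.0775, which turned to 0.102 with median centring and 0.0154 without WT replicate 1. Of 24 genes of the BCL2 family and apoptosis 0 passed. Bcl2, the survival gene, read 4287 and 3822 in WT and between 1958 and 3096 in the deficient arrays (-0.67 ± 0.25 SE, limma adjusted p = 0.363), and Bbc3, the death-promoting PUMA, read 153 and 82.8 in WT and between 17.6 and 40.9 (limma adjusted p = 0.13). Grb10, an adaptor that limits receptor signalling, was among 30 inhibitors of signalling, of which Rgs1 alone passed. It read 805 and 1062 in WT, 224 and 73.7 in the IRF8 KO arrays, and 22.1 and 12.7 in the IRF4/8 DKO arrays (-3.91 ± 0.79 SE, limma adjusted p = 0.0687). Other Grb10 probe sets differed by -1.94 and -0.067 (limma adjusted p = 0.0545 and 0.986). Grb14 read 20.7 and 31.7 in WT, 51.5 and 91.2 in the IRF8 KO arrays, and 163 and 307 in the IRF4/8 DKO arrays (limma adjusted p = 0.243). Another Grb14 probe set differed by -0.11, with overlapping groups (limma adjusted p = 0.954). A missed threshold does not show that these levels are alike.

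Genes of cell cycle, chromatin, lysosome, heme synthesis and CDK inhibition held no call. The lists had 29, 25, 22, 11 and 7 measured genes, with medians of -0.0168, 0.000612, 0.151, 0.249 and 0.407. Median centring turned the first to 0.163, so its direction is not settled. Rrm1, a subunit of ribonucleotide reductase, read 5962 and 7553 in WT and between 4585 and 5320 in the deficient arrays, and Dnmt3b, a DNA methyltransferase, 1724 and 1353 against 540 to 1046. Cdkn2c, the inhibitor p18, read 652 and 794 in WT and between 1116 and 1450 in the deficient arrays, all without overlap and none passing (limma adjusted p = 0.387, 0.38 and 0.38). Alas1, the first enzyme of heme synthesis, read 2169 and 3161 in WT and between 3560 and 6928 (limma adjusted p = 0.308). Lipa, the lysosomal acid lipase, read 911 and 660 in WT and between 1024 and 1855 (limma adjusted p = 0.421). In its 2 other probe sets the groups overlapped, with differences of 0.74 and 0.16 (limma adjusted p = 0.753 and 0.907).

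Of 15 endothelial and stromal genes, 2 fell, 13 were below WT and the median was -0.934. The 2 were Tek, which stem cells also express, and Cavin1, a caveola protein, which fell from 216 and 100 to between 4.01 and 23.9 (limma adjusted p = 0.0239), while its other probe set differed by 0.33 without passing. The median was -0.0963 without WT replicate 1, when 0 of the list passed, and 1 gene passed without WT replicate 2 or without either IRF4/8 DKO array. The 6 markers of these cells gave sums that overlapped, at 598.7 and 365.5 in WT and between 299.5 and 584.5 in the deficient arrays, and their part was not tested. Of 11 housekeeping genes 0 passed, with a median of -0.0742, which was 0.106 with median centring and 0.0379 without WT replicate 2. Actb read between 12202 and 13808 on every array, and Hprt between 2135 and 3659. A second Ywhaz probe set rose 4.51-fold (limma adjusted p = 0.021), while the one that represents the gene did not pass.

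**Figure D3:**
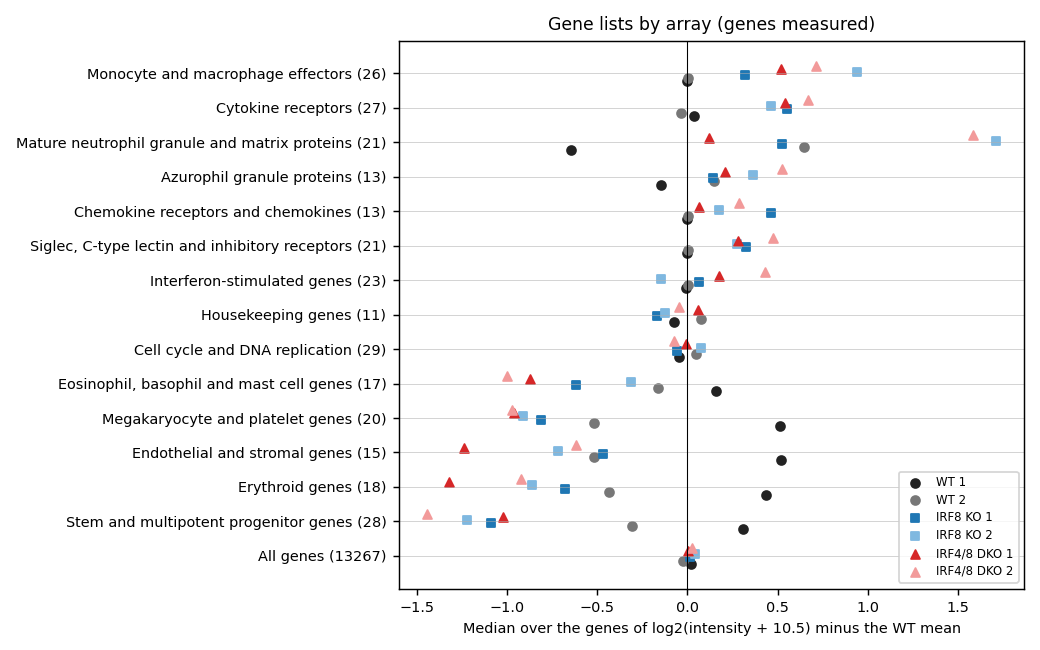
For each array, the median over the measured genes of a list of the difference between log2(intensity + 10.5) and the mean of both WT arrays, with the number of genes in brackets. Stem cell genes lie below both WT arrays on all 4 deficient arrays, mature neutrophil genes separate replicate 1 from replicate 2 in each genotype, and the median of all genes lies near 0 on every array.

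The size of the difference in each knockout genotype is given for some of the 41 named genes that passed. Since these genes were named for arrays that do not overlap, both genotypes lie on the same side of WT by choice, and both are set against the same WT arrays. Tmem178 differed from WT by 5.66 in IRF8 KO and 5.74 in IRF4/8 DKO, Mecom by -2.39 and -2.44, and Slc7a8 by -3.31 and -3.29. Cpa3 differed by -3.73 and -5.39, Car2 by -3.35 and -4.75, and Ccr1 by 4.18 and 5.43. The direct difference between the genotypes was -1.66 ± 0.54 (SE) for Cpa3 and 1.25 ± 0.56 (SE) for Ccr1, with limma adjusted p of 0.539 and 0.587. Over all probe sets, 110 of the 175 that passed lay further from WT in IRF4/8 DKO than in IRF8 KO. No probe set passed between IRF4/8 DKO and IRF8 KO with limma, and 2538 had an unadjusted p under 0.05.

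The joined comparison favours genes with a small spread within the deficient group, and some genes with a very low IRF4/8 DKO level did not pass. The 2 given here were chosen after their values were seen. Prg2, the eosinophil major basic protein, read 5863 and 3689 in WT, 3029 and 974 in the IRF8 KO arrays, and 121 and 17.9 in the IRF4/8 DKO arrays (-3.84 ± 1.45 SE, limma adjusted p = 0.368). Pf4, platelet factor 4, read 2516 and 590 in WT, 798 and 394 in the IRF8 KO arrays, and 9.85 and 11.2 in the IRF4/8 DKO arrays (-3.49 ± 1.41 SE, limma adjusted p = 0.411). In IRF8 KO, Pf4 overlapped WT, and in IRF4/8 DKO both genes read far below every other array. Against WT, 476 probe sets passed when only IRF4/8 DKO was compared and 2 when only IRF8 KO was, and a difference between these counts is not a test of the genotypes.

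**Figure D4:**
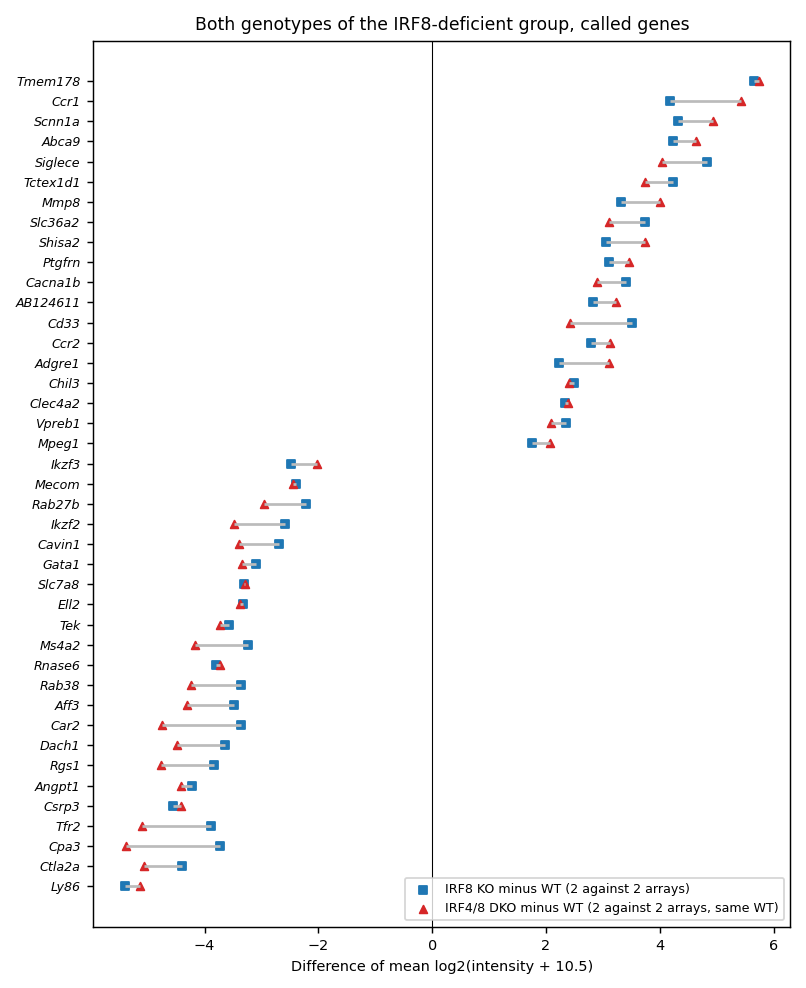
Difference of mean log2(intensity + 10.5) from WT in IRF8 KO (squares) and IRF4/8 DKO (triangles), 2 arrays each against the same 2 WT arrays, for the 41 named genes that passed. Both symbols share a side of 0 because the genes were chosen for arrays that do not overlap. The distance between the symbols shows how far the genotypes differ. It is small for Tmem178 (5.66 and 5.74) and Ly86 (-5.40 and -5.14), and larger for Cpa3 (-3.73 and -5.39) and Car2 (-3.35 and -4.75).

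Each genotype held 1 male and 1 female. No probe set showed an effect of IRF8 loss that differed between males and females with limma's interaction term, and 226 had an unadjusted p under 0.05. This test rests on 1 WT array per sex. With sex as a block 98 probe sets passed, and 33 of the 41 named genes. The 8 that did not were Adgre1, Cacna1b, Car2, Cd33, Gata1, Ikzf3, Rab27b and Vpreb1. With age as a covariate 206 passed, and all 41 did.

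Genes next to the targeted loci were also read. Of the 20 coding genes on each side of Irf8, 28 were measured over both sides and 0 passed, with a median of -0.0102. Around Irf4, 14 were measured and 0 passed, with a median of -0.00768. Over all genes 0.754% passed, so nothing is read from these zeros.

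**Figure D5:**
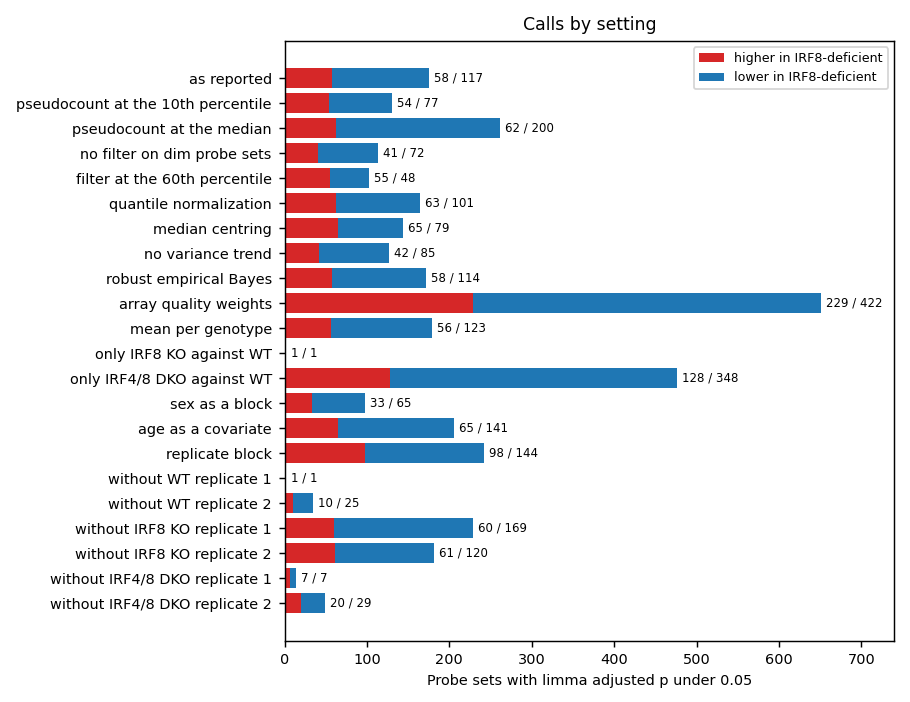
Number of probe sets with a limma adjusted p under 0.05, higher (red) and lower (blue) in the IRF8-deficient group, as reported and under each alternative, with both numbers (higher / lower) beside the bar. The count is 175 as reported, 2 without WT replicate 1 and 651 with array quality weights.

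Promoters of the genes that passed were searched for short motifs of blood cell transcription factors. The 250 bases before each gene's start came from RefSeq (GRCm38.p6), and a promoter was found for 38 of the 46 genes that rose (52 windows) and 56 of the 78 that fell (81 windows). The motifs, on both strands, were GAAANNGAA for the interferon-stimulated response element, GGAANNGAA for the Ets-IRF composite element, GAGGAAGT for PU.1, AGATAA for GATA factors and TTGCGCAA for C/EBP factors. Matches of different motifs overlapped in 0.259% of the 32851 windows. Below, the promoters of the 2 most raised and the 2 most lowered named genes that hold any of these motifs are printed 5′ to 3′ on the gene's strand, with the match in capitals, to show where such letters sit in genes that rose and fell. Mmp8 (chr9:7558179-7558428, plus strand) holds the PU.1 letters on the opposite strand, and Shisa2 (chr14:59625031-59625280, plus strand) the interferon-response letters. Ctla2a (chr13:60936626-60936875, minus strand, 1 of 2 starts in the table) holds the GATA letters on the opposite strand and Cpa3 (chr3:20242182-20242431, minus strand) on its own.
Mmp8: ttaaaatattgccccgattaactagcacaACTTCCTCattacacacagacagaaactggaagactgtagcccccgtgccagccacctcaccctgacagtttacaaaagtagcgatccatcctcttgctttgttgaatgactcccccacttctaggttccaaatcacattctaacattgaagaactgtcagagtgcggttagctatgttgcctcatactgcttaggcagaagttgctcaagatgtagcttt
Shisa2: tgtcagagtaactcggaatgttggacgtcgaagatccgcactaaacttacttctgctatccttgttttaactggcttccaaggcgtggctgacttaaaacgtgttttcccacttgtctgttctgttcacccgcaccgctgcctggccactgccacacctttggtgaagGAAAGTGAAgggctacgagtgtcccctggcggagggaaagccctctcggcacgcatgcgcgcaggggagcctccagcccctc
Ctla2a: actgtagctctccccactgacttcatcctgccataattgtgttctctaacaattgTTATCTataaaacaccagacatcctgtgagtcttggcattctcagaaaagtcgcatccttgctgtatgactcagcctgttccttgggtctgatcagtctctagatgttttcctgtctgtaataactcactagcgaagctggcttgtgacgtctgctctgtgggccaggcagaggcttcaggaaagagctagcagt
Cpa3: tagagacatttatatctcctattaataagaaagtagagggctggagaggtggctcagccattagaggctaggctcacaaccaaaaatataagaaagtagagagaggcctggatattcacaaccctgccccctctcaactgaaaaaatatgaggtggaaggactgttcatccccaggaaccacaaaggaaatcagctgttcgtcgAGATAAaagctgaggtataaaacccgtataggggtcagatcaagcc

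The match in Mmp8 lies 221 to 214 bases before the start, that in Shisa2 82 to 74, that in Ctla2a 195 to 190 and that in Cpa3 46 to 41. The interferon-response letters were in 9.62% of windows of genes that rose (95% exact binomial interval 3.2 to 21) and 11.1% of windows of genes that fell (5.21 to 20), beside 6.11% over all measured genes and 7.13% of all windows. The Ets-IRF letters were in 5.77% and 3.70%, beside 6.21% and 6.99%. The PU.1 letters were in 1.92% and 2.47%, beside 2.48% and 2.44%. The GATA letters were in 9.62% and 11.1%, beside 6.33% and 9.99%. The C/EBP letters were in 0 of the 52 and 0 of the 81 windows, beside 0.235% and 0.164%. For the interferon-response, Ets-IRF, PU.1 and GATA letters, the intervals of both gene groups, which cover counting error only, include the share over all measured genes. Windows of 1 gene can overlap, and a match is a description of letters, not of binding.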

How the data were processed

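RNA of sorted GMPs was measured on 6 arrays, 2 per genotype. The deposited intensity values were normalized by the authors and computed with the model of perfect-match minus mismatch differences in dChip 1.3, per the series' design text; no source used here gives its further settings. They ranged from 0.69 to 16563.28 over 45037 probe sets.

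Values were turned to log2(intensity + 10.5). Probe sets above the 40th percentile of their array on at least 2 of 6 arrays were kept (29783, with 15254 left out), so calls are over kept probe sets. A fit of 4 IRF8-deficient against 2 WT arrays was made with limma 3.58.1 in R 4.3.3 (trended empirical Bayes, no covariates, 4 residual and 6.12 prior degrees of freedom), with Benjamini-Hochberg adjustment and a threshold of 0.05. Scripts were tested on simulated data.

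Symbols came from GEO's platform annotation, updated through RefSeq (GRCm38.p6): 34945 probe sets had 1 symbol, 932 several and 9160 none in the table used, and the last 2 kinds were tested but not named. The rule named Irf8 and Irf4, the 12 largest rises and falls and the 5 smallest adjusted p per direction among called genes without overlap, and per list up to 4 called members, or up to 2 others where fewer than 2 passed. Kit, Mpo, Elane, Cd180, Lcn2, Csf1r, Klf1, Tfrc, Cebpa, Gfi1, Spi1, Ywhaz, Siglech, Batf3, Pax5, Prg2, Pf4 and Meis1 were named beyond the rule, after their values were seen. The comparison and all gene lists were chosen with earlier results of these data known. Same-numbered arrays deviated together at r = 0.0411 to 0.211 across probe sets, low but all positive. The main fit did not take the numbers as pairs, and a fit with replicate number as a covariate is among the alternatives.

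Alternatives were 2 other pseudocounts (3.9 and 39.23), no filter or a stricter one at the 60th percentile, median centring, quantile normalization, no trend, robust variances, array weights, a mean per genotype, each genotype alone, sex, age or replicate number as covariates, leaving out each array, and, for list medians, averaging the probe sets of each gene.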

Additional observations from a re-analysis of the deposited data

Results flagged for a closer look

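In 5 of the 80 named genes, 1 of the 4 IRF8-deficient arrays lay far from the other 3 by Dixon's 95% criterion, which chance alone meets in about 1 of 20 groups. Ms4a2 read 318.84 in IRF8 KO replicate 1 against 66.69 to 78.29 in the other deficient arrays. Tfr2 read 93.07 in the same array against 11.06 to 14.9. Scnn1a read 2146.07 in IRF4/8 DKO replicate 2 against 907.66 to 913.98. Rab38 read 26.57 in that array against 119.56 to 135.69. Siglece read 707.94 in IRF4/8 DKO replicate 1 against 1700.16 to 1916.3. All 5 genes passed between the groups, and each outlying value still lay on the deficient side of both WT arrays.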

How the results depend on the processing

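The number of probe sets that passed varied; the sign of the 175, whose arrays do not overlap, cannot turn when an array is left out. Leaving out each array in turn gave 2 to 229 in all, 1 to 61 higher and 1 to 169 lower. Across the other alternatives the count was 113 without a filter (72 lower), 103 with the 60th percentile filter (48 lower), 651 with array weights (229 higher, 422 lower), 2 for IRF8 KO alone (1 higher, 1 lower), 476 for IRF4/8 DKO alone (128 higher, 348 lower) and 98 with sex as a block (33 higher, 65 lower). Of the falls, 77 passed with the pseudocount 3.9 and 200 with 39.23. With the replicate block 242 passed, 98 higher and 144 lower. Same-numbered arrays deviated together only weakly over all probe sets, but in the same direction for every pair of genotypes (r = 0.0411, 0.187 and 0.211). Mature neutrophil genes were higher in replicate 2 of every genotype, and what same-numbered arrays share was not tested. The cause of the changes in the count was not tested, except that the 60th percentile filter left 140 of the 175 to be tested. Leaving out each array in turn took Irf4 from -0.311 to 0.380 and Hprt from -0.587 to 0.0298. Irf4 reversed to -0.0519 with the pseudocount 3.9, -0.855 for IRF8 KO alone, and -0.145, -0.311 and -0.234 without WT replicate 2 and IRF4/8 DKO replicates 1 and 2, and Hprt to 0.0298 without WT replicate 2; neither passed in any of these. Over 29 lists and 22 alternatives (the 21 of the probe set counts and averaging the probe sets of each gene), 638 list medians were recomputed, of which 62 moved by more than the spread between replicates and 42 changed sign. With genes at an unadjusted p under 0.05, the interferon-response letters were in 5.15% of windows of genes that fell, the GATA letters in 7.14% (6.28% of those that rose), the Ets-IRF letters in 5.69% of those that fell and the PU.1 letters in 3.2% of those that rose. The number of arrays and the low end of the signal, where 38 falls have a deficient mean under 10.5, limit the precision.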
